A study of Mus musculus with 8 samples.

Results

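The genes described here are the subunits and inhibitors of NF-kB: Rel, Rela and Nfkb1 of the canonical arm, Relb and Nfkb2 of the non-canonical arm, the cytoplasmic inhibitors Nfkbia, Nfkbib and Nfkbie, and Bcl3 and Nfkbiz, members of the inhibitor family that act in the nucleus. They were chosen by name, through probe accessions that map to these symbols, and make up 10 of the 20145 named genes on the array, with 14 probes. Dendritic cells were sorted from mouse thymus, and their Cy3-labelled RNA was measured on 8 one-colour Agilent arrays of 1 slide. The 4 groups, with 2 arrays each, were mature (arrays 1 and 6) and immature (arrays 3 and 5) cells of the Sirpa-positive subset, and mature (arrays 2 and 8) and immature (arrays 4 and 7) cells of the Sirpa-negative subset, Sirpa being an inhibitory surface receptor found on a subset of dendritic cells. No treatment, genetic change, strain or age is given in the labels, which also leave unnamed how maturity was gated and whether replicate arrays stem from different mice or sorts. The spread behind each p-value is thus only that between these samples and may be technical. The study set the 4 groups against each other, and its title names CD40 in thymic dendritic cell maturation and regulatory T cell development.

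NF-kB proteins act as dimers. In the canonical arm, stimuli such as Toll-like receptor ligands or TNF activate the IKK kinase complex, inhibitors such as the products of Nfkbia, Nfkbib and Nfkbie are degraded, and dimers that hold Rela or Rel with p50, the processed product of Nfkb1, enter the nucleus. In the non-canonical arm, receptors such as CD40 lift the degradation of the kinase NIK (Map3k14) by the TRAF and cIAP proteins, and p100, the product of Nfkb2, is processed to p52, the partner of Relb. Relb is required for the development of medullary epithelium and some dendritic cells of the mouse thymus, and nuclear NF-kB accompanies the maturation of dendritic cells in general. Arrays measure transcripts, not processing, degradation or nuclear entry.

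Several of these genes carry kappaB motifs near their own start sites, and stretches that hold them are printed here. Whether these motifs have a part in the differences between mature and immature cells given below was not tested. RefSeq promoter windows (GRCm38.p6, 250 bases before to 50 after a transcription start) were at hand for 7 of the 10 genes, and the kappaB consensus was searched in them on both strands. It was found in windows of 5 of the 7 (Rel, Nfkb2, Nfkbia, Nfkbie and Bcl3), with no match in those of Rela and Nfkbib. Counted by window, it was found in 7 of the 9 windows of these genes and in 1480 of all 32851 windows (4.51%). A match is a description of these letters, not a measured binding site. The sequences read 5′ to 3′ on the gene's strand, and capitals mark the matches.
Rel, chr11:23771011-23771101, minus strand: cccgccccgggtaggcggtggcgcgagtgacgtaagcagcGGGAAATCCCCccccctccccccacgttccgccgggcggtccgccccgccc
Nfkb2, chr19:46304658-46304736, plus strand: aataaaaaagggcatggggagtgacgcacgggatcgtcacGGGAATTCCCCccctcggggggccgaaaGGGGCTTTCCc
Nfkbia, chr12:55492648-55492716, minus strand: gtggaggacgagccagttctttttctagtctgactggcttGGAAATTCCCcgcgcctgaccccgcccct
Nfkbie, chr17:45555554-45555643, plus strand: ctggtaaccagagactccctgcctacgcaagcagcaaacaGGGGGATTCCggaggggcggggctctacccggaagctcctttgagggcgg
In the Rel and Nfkb2 windows, the first run of capitals holds overlapping matches, since the motif is nearly the same on both strands. For Nfkb2, the window of its upstream start is shown. The 2 further windows of this gene overlap each other and share a match, so the windows are not independent. Counted from the transcription start, the match nearest to it began at -11 in the Nfkb2 window shown, at -29 in Nfkbia, at -91 in Rel, at -106 in Nfkbie and at 2 in Bcl3.

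On each array, the 75th percentile of the processed signal lay between 147.3 and 313 intensity units, and 52.9% to 65.5% of spots were well above background. The slide's rows differed in that share (61.9% to 65.5%, against 52.9% to 57.9%), and each row held 1 array of every group. The labels were borne out by their genes: Sirpa was higher in Sirpa-positive cells (log2 difference 4.82 in mature and 6.83 in immature cells), and Ccr7, the chemokine receptor of mature dendritic cells, was higher in mature cells (6.16 in Sirpa-positive and 5.69 in Sirpa-negative cells). Of 17 dendritic cell markers measured, 15 were well above background on all 8 arrays, among them Itgax, Flt3 and Zbtb46. With maturation 3 of the 17 rose in Sirpa-positive cells (Ccr7, Fscn1 and Batf3). In Sirpa-negative cells 4 rose, with Irf4 (3.63), Fscn1 (5.28) and Ccr7 foremost, and 2 fell, Cd24a (-1.23) and Xcr1 (-1.37). Sirpa itself was higher in Sirpa-negative mature than immature cells. There it had 0.697 and 0.538 times the array's 75th percentile, against 0.211 and 0.219, while Sirpa-positive arrays had 15.5 to 25.6. All 10 NF-kB genes were measured, and 13 of their 14 probes were well above background on all 8 arrays; the exception was Rel, above background on only 1 of the 2 Sirpa-negative immature arrays. Signals below are multiples of the array's 75th percentile and compare groups for 1 gene, never 1 gene with another, since probes differ in response. A log2 difference is given with its standard error, and a change passed where limma's p, adjusted by Benjamini-Hochberg over all 24148 genes tested, was under 0.05.

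**Figure D1:**
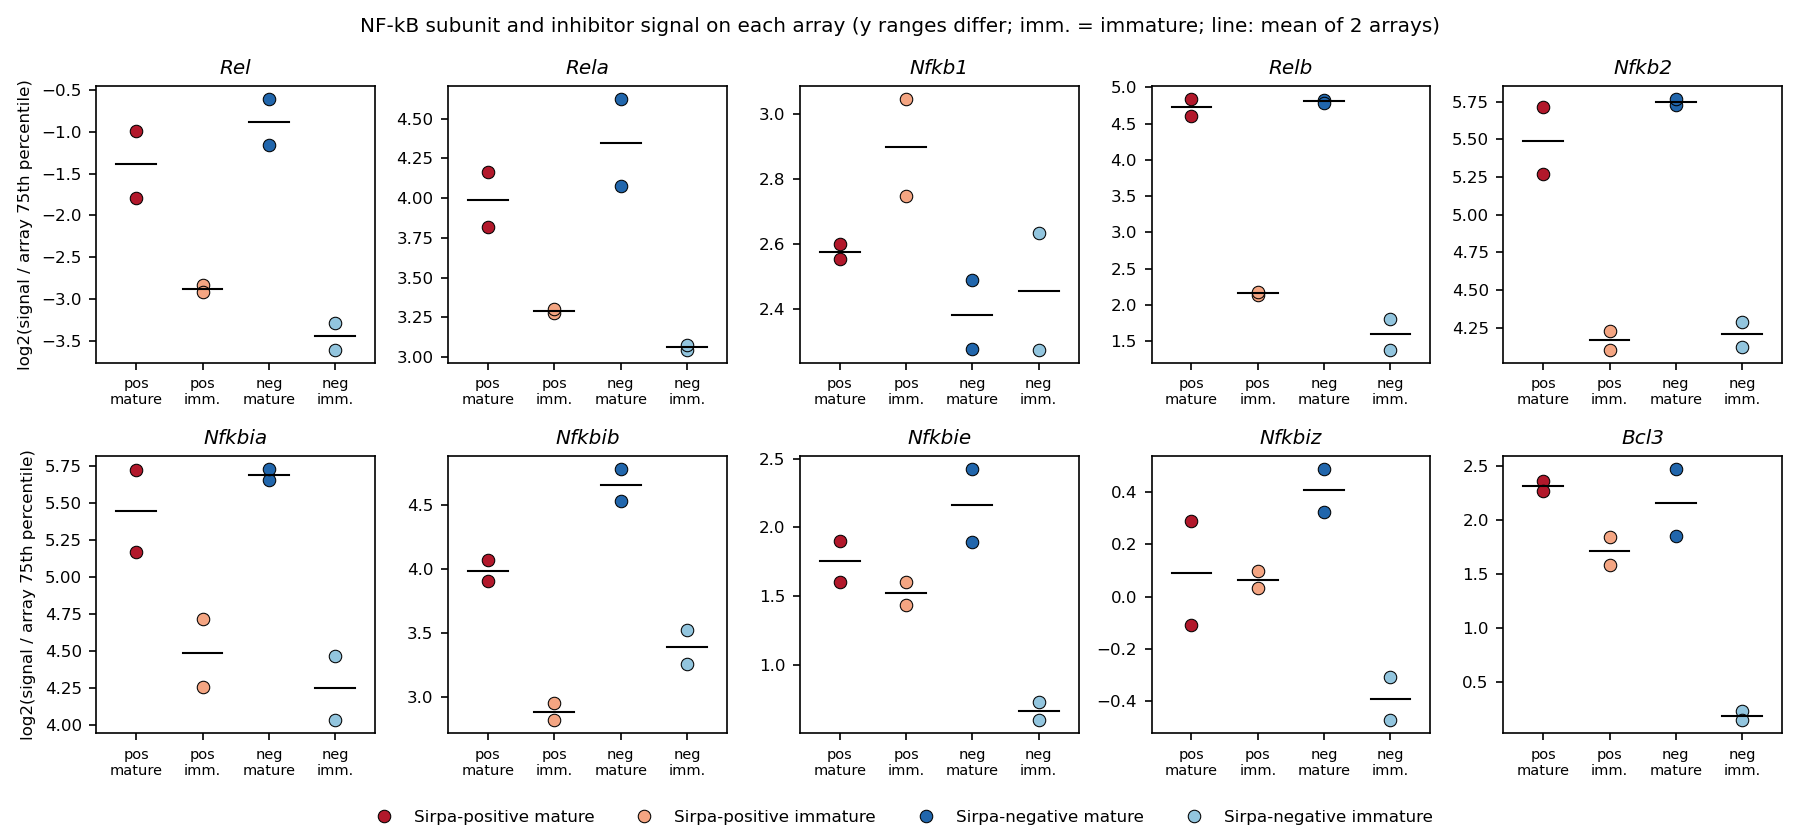
Log2 of the signal over the array's 75th percentile for the 10 genes, 1 panel each, with 1 point per array, a line at the mean of the 2 arrays of a group, and a y range that differs between panels. Every mature array lies above every immature array for Rel, Rela, Relb, Nfkb2, Nfkbia, Nfkbib, Nfkbie and Bcl3. The margin is narrow for Nfkbie (1.606 against 1.604) and Bcl3 (1.851 against 1.845). The share of all genes split in this way over both subsets was not computed. Within a subset, both mature arrays exceeded both immature arrays for 25.6% of all genes in Sirpa-positive and 27% in Sirpa-negative cells. The groups of Nfkb1 lie close together.

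With maturation, 4 of the 10 genes rose in Sirpa-positive cells (Relb, Rel, Nfkb2 and Nfkbib) and none (0) fell, where 4.35% of all genes rose, and 6.89% changed in either direction. In Sirpa-negative cells 9 of the 10 rose, all except Nfkb1, and none (0) fell, where 9.23% of all genes rose and 16.5% changed in either direction. The median log2 difference of the 10 genes was 0.83 in Sirpa-positive cells, where the median of all genes was 0.03, and 1.47 in Sirpa-negative cells, where the median of all genes was -0.01. At an unadjusted p under 0.05, 7 of the 10 changed in Sirpa-positive cells, where 20.2% of all genes did, and 9 of the 10 in Sirpa-negative cells, where 29.8% did. Without Sirpa-positive mature array 6 or without Sirpa-positive immature array 3 or 5, the Sirpa-positive count was 1, and without Sirpa-positive mature array 1 it was 2. In such sorted bulk samples, fewer cells of a type and less RNA per cell cannot be told apart.

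Relb, the non-canonical subunit that pairs with p52, rose most of the 10 in both subsets. Its signal was 24.3 and 28.7 in Sirpa-positive mature cells, against 4.4 and 4.54 in Sirpa-positive immature cells. In Sirpa-negative mature cells it was 28.3 and 27.6, against 3.49 and 2.6 in Sirpa-negative immature cells. All 4 mature arrays thus stood at a similar level, far above every immature array, with no overlap. Across all genes, both mature arrays exceeded both immature arrays for 25.6% of genes in Sirpa-positive and 27% in Sirpa-negative cells. The log2 difference was 2.57 ± 0.22 in Sirpa-positive cells, a 5.92-fold rise (adjusted p = 0.00187), and 3.21 ± 0.22 in Sirpa-negative cells, a 9.28-fold rise (adjusted p = 0.000513). A second Relb probe gave 2.53 ± 0.244 and 3.27 ± 0.244 in the same order of subsets. Relb passed in both subsets in every alternative run, and without any 1 array its difference lay between 2.45 and 2.68 in Sirpa-positive and between 3 and 3.43 in Sirpa-negative cells.

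Nfkb2, whose product p100 both holds Relb back and yields p52, also rose in both subsets, by less. Its signal was 38.5 and 52.4 in Sirpa-positive mature cells, against 17.2 and 18.8 in Sirpa-positive immature cells. In Sirpa-negative cells it was 52.9 and 54.6 in the mature group, against 19.6 and 17.4 in the immature group. No mature array overlapped an immature array, and the immature arrays of both subsets lay together. The difference was 1.32 ± 0.22 in Sirpa-positive cells, 2.5-fold (adjusted p = 0.0162), and 1.54 ± 0.22 in Sirpa-negative cells, 2.91-fold (adjusted p = 0.00484). The Sirpa-positive call was lost without Sirpa-positive immature array 3 (adjusted p = 0.113) or 5 (adjusted p = 0.0925), without Sirpa-positive mature array 6 (adjusted p = 0.0883) and with no filter on dim probes (adjusted p = 0.0791), at differences of 1.1 to 1.54 when any 1 array was left out.

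In the canonical arm, Rel rose in both subsets. Rel encodes c-Rel, a subunit with a transactivation domain that is prominent in lymphocytes and dendritic cells. Its signal was 0.503 and 0.29 in Sirpa-positive mature cells, against 0.14 and 0.133 in Sirpa-positive immature cells. In Sirpa-negative cells it was 0.659 and 0.449 in the mature group, against 0.103 and 0.0821 in the immature group, where only 1 of the 2 arrays was above background. These are dim signals, well under the array's 75th percentile, yet the groups did not overlap. The rise was 2.57 ± 0.323 in Sirpa-negative cells, 5.93-fold (adjusted p = 0.00297), and passed in every alternative run there, at 1.15 to 2.84. In Sirpa-positive cells it was 1.48 ± 0.323, 2.8-fold (adjusted p = 0.0391), a call that 11 of 19 alternatives lost. They include leaving out Sirpa-positive mature array 1 (adjusted p = 0.128) or 6 (0.0531), Sirpa-positive immature array 3 (0.166) or 5 (0.192), Sirpa-negative immature array 4 or 7 (0.0535 for each), and the authors' values, where the difference was 0.93 (adjusted p = 0.062).

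Rela encodes p65, the main transactivating subunit of the canonical arm. Its signal was 17.9 and 14.1 in Sirpa-positive mature cells, against 9.68 and 9.88 in Sirpa-positive immature cells. It was 24.7 and 16.8 in Sirpa-negative mature cells, against 8.25 and 8.44 in Sirpa-negative immature cells. Both pairs of groups stood apart, with a wider spread among mature than immature arrays. The rise in Sirpa-negative cells was 1.29 ± 0.248, 2.44-fold (adjusted p = 0.0142). It missed the threshold without Sirpa-negative mature array 2 (adjusted p = 0.069), without Sirpa-negative immature array 4 (0.0665) or 7 (0.0568), and in 2 other alternatives. The Sirpa-positive difference of 0.70 ± 0.248 did not pass (adjusted p = 0.163, 95% interval 0.12 to 1.28), although it did with normexp on the median pixel signal followed by quantile normalization (adjusted p = 0.0368).

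Nfkb1, the gene of p105 and p50, was the member with no detected difference in either subset. Its signal was 5.86 and 6.06 in Sirpa-positive mature cells, against 6.72 and 8.26 in Sirpa-positive immature cells. It was 4.84 and 5.61 in Sirpa-negative mature cells, against 6.2 and 4.84 in Sirpa-negative immature cells. The mature arrays thus lay below the immature ones in the Sirpa-positive subset and overlapped with them in the Sirpa-negative subset. The difference was -0.32 ± 0.224 in Sirpa-positive cells (adjusted p = 0.509, 95% interval -0.85 to 0.2) and -0.07 ± 0.224 in Sirpa-negative cells (adjusted p = 0.87, 95% interval -0.6 to 0.45). Both intervals end below the rises measured for Relb, Nfkb2 and Rel. A second Nfkb1 probe gave -0.45 ± 0.345 in Sirpa-positive and 0.09 ± 0.345 in Sirpa-negative cells, neither of which passed.

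**Figure D2:**
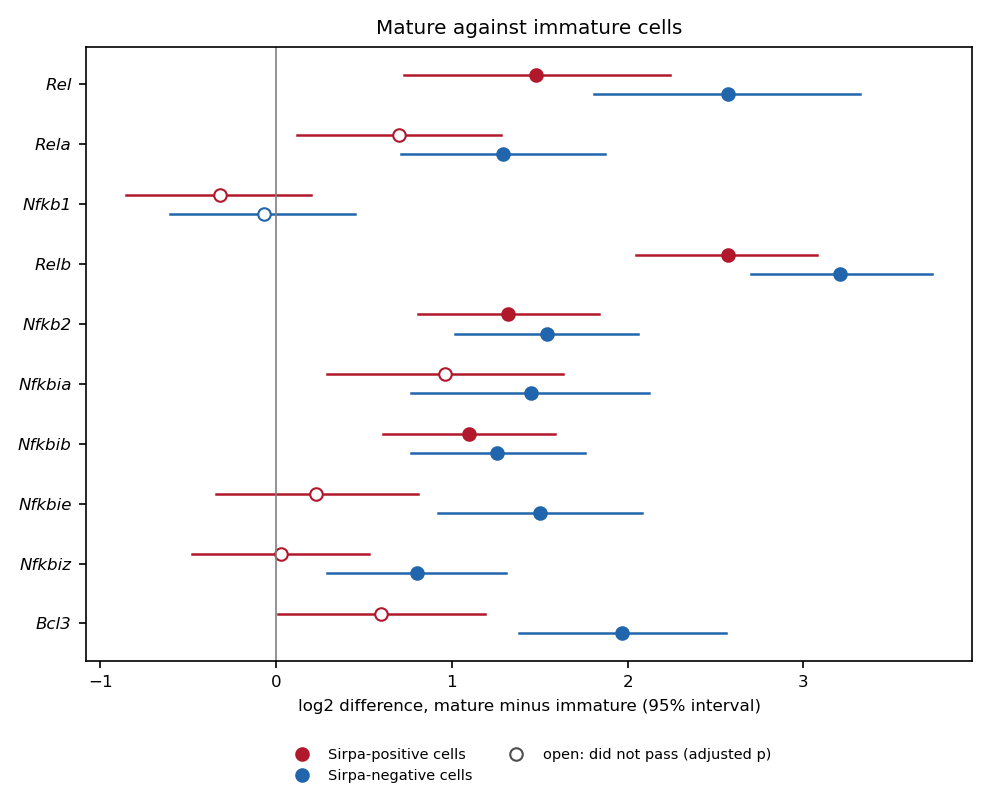
Log2 difference of mature over immature cells for each of the 10 genes, with 95% intervals from the limma model, in Sirpa-positive and Sirpa-negative cells; filled points passed the test at an adjusted p under 0.05 over all genes. Relb lies furthest right at 2.57 and 3.21, and Nfkb1 spans 0 in both subsets.

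Among the cytoplasmic inhibitors, Nfkbib was the one that rose in both subsets. It encodes IkBb, which holds Rela and Rel dimers in the cytoplasm. Its signal was 15 and 16.8 in Sirpa-positive mature cells, against 7.06 and 7.76 in Sirpa-positive immature cells. In Sirpa-negative cells it was 23.1 and 27.5 in the mature group, against 11.5 and 9.56 in the immature group. Maturation therefore separated the arrays within each subset, while Sirpa-negative arrays stood above Sirpa-positive arrays of the same stage. The rise was 1.10 ± 0.21 in Sirpa-positive cells, 2.14-fold (adjusted p = 0.0259), and 1.26 ± 0.21 in Sirpa-negative cells, 2.4-fold (adjusted p = 0.0085). All 3 Nfkbib probes passed in both subsets, at 1.1 to 1.6 in Sirpa-positive and 1.26 to 1.43 in Sirpa-negative cells. The Sirpa-positive call was lost without Sirpa-positive mature array 1 (adjusted p = 0.0683) or 6 (0.128), without Sirpa-positive immature array 3 (0.158) or 5 (0.121), with no filter on dim probes (0.11) and when slide rows were blocked (0.053).

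Nfkbia encodes IkBa, the fast-acting inhibitor that canonical NF-kB itself induces. Its signal was 35.9 and 52.9 in Sirpa-positive mature cells, against 19.1 and 26.3 in Sirpa-positive immature cells. It was 50.4 and 53.1 in Sirpa-negative mature cells, against 16.3 and 22.1 in Sirpa-negative immature cells. The groups did not overlap in either subset, but the arrays within each Sirpa-positive group differed more than those within the Sirpa-negative mature group. In Sirpa-negative cells the rise was 1.45 ± 0.286, 2.72-fold (adjusted p = 0.0157), which missed the threshold without Sirpa-negative mature array 2 (adjusted p = 0.0695) or 8 (0.0599), without Sirpa-negative immature array 4 (0.084) and with no filter on dim probes (0.0629). In Sirpa-positive cells the difference of 0.96 ± 0.286 did not pass (adjusted p = 0.104, 95% interval 0.29 to 1.63), whereas it passed in 4 alternatives: the authors' values (0.85, adjusted p = 0.0434), title-number sets fitted as a block (0.96 ± 0.199, adjusted p = 0.0394), trended and robust variances (0.0323), and normexp with quantile normalization (0.0234).

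Nfkbie encodes IkBe, an inhibitor that acts mainly on Rel and Rela dimers. Its signal was 3.73 and 3.04 in Sirpa-positive mature cells, against 2.71 and 3.04 in Sirpa-positive immature cells, so that an array of each group had nearly the same value. It was 5.37 and 3.72 in Sirpa-negative mature cells, against 1.65 and 1.51 in Sirpa-negative immature cells, which stood lowest of all groups. The rise in Sirpa-negative cells was 1.5 ± 0.246, 2.83-fold (adjusted p = 0.00801), and it passed in every alternative run. In Sirpa-positive cells the difference was 0.23 ± 0.246 and did not pass (adjusted p = 0.683, 95% interval -0.34 to 0.81).

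Bcl3 encodes a nuclear member of the inhibitor family that binds p50 and p52 dimers on DNA. Its signal was 5.13 and 4.82 in Sirpa-positive mature cells, against 3.59 and 3 in Sirpa-positive immature cells. It was 5.54 and 3.61 in Sirpa-negative mature cells, against 1.18 and 1.11 in Sirpa-negative immature cells. The Sirpa-negative immature arrays stood apart from all 6 others. The rise in Sirpa-negative cells was 1.97 ± 0.253, 3.92-fold (adjusted p = 0.00324), and passed in every alternative run, while the Sirpa-positive difference of 0.60 ± 0.253 did not pass (adjusted p = 0.241, 95% interval 0.01 to 1.19).

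Nfkbiz encodes IkBz, a nuclear cofactor of p50 dimers at inducible genes. Its signal was 1.22 and 0.927 in Sirpa-positive mature cells, against 1.07 and 1.02 in Sirpa-positive immature cells, and these groups overlapped. It was 1.4 and 1.25 in Sirpa-negative mature cells, against 0.72 and 0.808 in Sirpa-negative immature cells, which did not overlap. The Sirpa-negative difference of 0.80 ± 0.217, 1.74-fold, passed narrowly (adjusted p = 0.0464), and 11 of 20 alternatives lost it. Among the arrays, only leaving out 1 of the 2 Sirpa-positive mature arrays kept the call, and the adjusted p reached 0.189 without Sirpa-negative immature array 4, 0.112 without array 7 of that group, 0.175 without Sirpa-negative mature array 2, 0.087 without array 8 of that group and 0.0879 without either Sirpa-positive immature array. The Sirpa-positive difference was 0.03 ± 0.217 (adjusted p = 0.971, 95% interval -0.48 to 0.53), with values of 0.26 and -0.21 in the 2 slide rows.

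Between the subsets at the immature stage, 1 of the 10 genes passed and was higher in Sirpa-positive cells, where 7.23% of all genes were higher and 11.6% differed in either direction. That gene was Bcl3, with 3.59 and 3 in Sirpa-positive immature cells, against 1.18 and 1.11 in Sirpa-negative immature cells. The difference was 1.52 ± 0.253, 2.87-fold (adjusted p = 0.00827), and without Sirpa-positive immature array 3 it was 1.39 and did not pass (adjusted p = 0.0784). Nfkbie came next at 0.86 ± 0.246, 1.82-fold (adjusted p = 0.0703), and passed in 3 alternatives, with adjusted p of 0.0211 to 0.0455. Relb (0.57 ± 0.22, adjusted p = 0.167), Rel (0.57 ± 0.323, 0.33), Nfkbiz (0.46 ± 0.217, 0.249) and Nfkb1 (0.44 ± 0.224, 0.276) were above 0 without passing. Nfkbib had the opposite sign at -0.50 ± 0.21 (adjusted p = 0.197), and another of its 3 probes passed among all probes (-0.86 ± 0.219, adjusted p = 0.0492). For Nfkb2 the difference was -0.04 ± 0.22, with a 95% interval of -0.56 to 0.48. The median of the 10 genes was 0.45, where that of all genes was -0.11, and both Sirpa-positive arrays exceeded both Sirpa-negative arrays for 7 of the 10, where they did for 23.1% of all genes.

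At the mature stage none (0) of the 10 genes passed with limma, where 5.47% of all genes differed (3.38% higher and 2.1% lower in Sirpa-positive cells), and 1 did at an unadjusted p under 0.05, where 16.7% of all genes did. That gene was Nfkbib, with 15 and 16.8 in Sirpa-positive mature cells, against 23.1 and 27.5 in Sirpa-negative mature cells. Its difference was -0.67 ± 0.21 (unadjusted p = 0.015, adjusted p = 0.148), and its 3 probes gave -0.72 to -0.67. The other 9 differences lay between -0.51 (Rel) and 0.19 (Nfkb1), 8 of all 10 were below 0, where 58.4% of all genes were, and their median was -0.29, where that of all genes was -0.07. For Relb the difference was -0.08 ± 0.22 with a 95% interval of -0.6 to 0.44, so that a change between subsets of the size seen with maturation lies outside it. Ordered by mean level, Rel, Rela, Relb, Nfkbia, Nfkbie and Nfkbiz were highest in Sirpa-negative mature cells, followed by Sirpa-positive mature, Sirpa-positive immature and Sirpa-negative immature cells. Nfkb2 and Nfkbib had the immature groups and Bcl3 the mature groups in the opposite order, and Nfkb1 was highest in Sirpa-positive immature cells. The neighbouring mature groups did not differ beyond the test's threshold for any member, nor did the immature groups except for Bcl3.

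**Figure D3:**
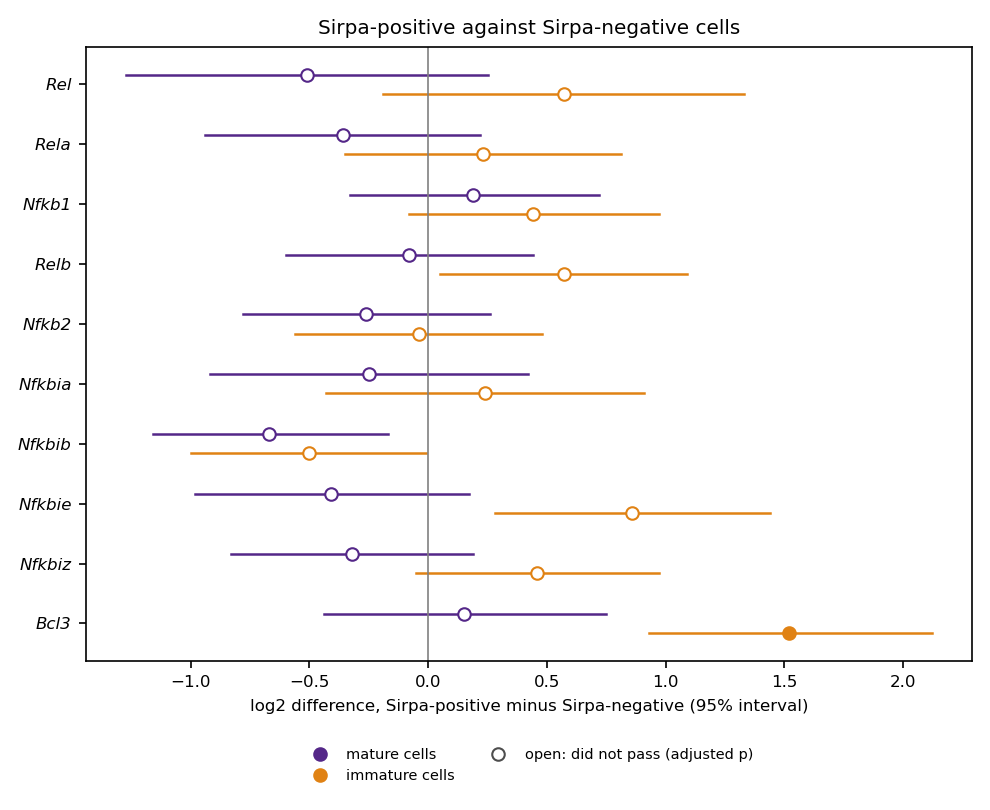
Log2 difference of Sirpa-positive over Sirpa-negative cells for each of the 10 genes, with 95% intervals from the limma model, at the mature and the immature stage; filled points passed at an adjusted p under 0.05 over all genes. Bcl3 at the immature stage (1.52) is the only filled point, and Nfkbib lies below 0 at both stages.

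The maturation effect in Sirpa-positive minus that in Sirpa-negative cells was tested for each gene as an interaction. None (0) of the 10 passed with limma, and none (0%) of the 24148 genes did; at an unadjusted p under 0.05 there were 4 of the 10 and 8.06% of all genes. The 4 were Bcl3 (-1.37 ± 0.358, unadjusted p = 0.00604, adjusted p = 0.277), Nfkbie (-1.27 ± 0.347, 0.00769 and 0.31), Nfkbiz (-0.77 ± 0.306, 0.0383 and 0.56) and Rel (-1.08 ± 0.456, 0.0481 and 0.611). All 10 estimates were below 0, between -1.37 and -0.16, with a median of -0.62, where 47.9% of all genes were below 0 and their median was 0.02. The estimates share the same 8 arrays and are not independent of each other. The counts of 4 and 9 genes that rose in the subsets are therefore not shown to differ for any single gene. For Relb and Nfkb2, the differences between the subsets were -0.65 ± 0.312 (adjusted p = 0.688) and -0.22 ± 0.312 (adjusted p = 0.875).

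Upstream of the non-canonical arm, 5 of 11 measured genes of a list of receptors and their adaptors rose with maturation in Sirpa-positive cells and 1 fell, with a median of 0.93. In Sirpa-negative cells 8 rose and 1 fell, with a median of 1.01. Over all genes, 4.35% rose and 2.54% fell in Sirpa-positive cells, and 9.23% rose and 7.24% fell in Sirpa-negative cells. The maturation counts of every gene list and marker list given here are to be read beside these shares. Cd40, the receptor named in the study's title, had a signal of 39.4 and 33.7 in Sirpa-positive mature cells, against 9.44 and 7.07 in Sirpa-positive immature cells. In Sirpa-negative cells it was 62.8 and 34.6 in the mature group, against 5.83 and 5.52 in the immature group. The rise of Cd40 was 2.16 ± 0.314, 4.46-fold, in Sirpa-positive cells (adjusted p = 0.0103) and 3.04 ± 0.314, 8.22-fold, in Sirpa-negative cells (adjusted p = 0.00148). Birc2, which encodes cIAP1, a ubiquitin ligase that keeps NIK low in resting cells, rose by a similar factor in both subsets, 6.77-fold in Sirpa-positive (adjusted p = 0.00116) and 7.93-fold in Sirpa-negative cells (adjusted p = 0.000513). Its signal was 4.55 and 5.37 in Sirpa-positive mature cells, against 0.706 and 0.757 in Sirpa-positive immature cells. It was 4.58 and 4.39 in Sirpa-negative mature cells, against 0.616 and 0.519 in Sirpa-negative immature cells. All 4 mature arrays thus lay between 4.39 and 5.37, and no immature array came near them.

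The other genes of that list that are named here showed rises, 1 fall and differences that did not pass. Birc3, which encodes cIAP2, rose 2.1-fold in Sirpa-positive (adjusted p = 0.0322) and 1.94-fold in Sirpa-negative cells (adjusted p = 0.026). Map3k14, the gene of NIK, rose 2.02-fold in Sirpa-negative cells (1.01 ± 0.206, adjusted p = 0.0175), and its difference in Sirpa-positive cells was 0.61 ± 0.206 (adjusted p = 0.145). Traf3, which links NIK to the cIAP proteins for degradation, rose 2.28-fold in Sirpa-negative cells (1.19 ± 0.273, adjusted p = 0.0268), with 0.93 ± 0.273 in Sirpa-positive cells (adjusted p = 0.102). Tnfrsf1b, the gene of TNF receptor 2, rose 3.32-fold in Sirpa-positive (adjusted p = 0.0181) and 14.3-fold in Sirpa-negative cells (adjusted p = 0.000638). At the immature stage Tnfrsf1b was higher in Sirpa-positive cells, with signals of 1.62 and 1.51, against 0.384 and 0.207 in Sirpa-negative immature cells (2.48, adjusted p = 0.00191). The gene that fell was Tnfrsf13c, which encodes the BAFF receptor, by 2.24 ± 0.298 on the log2 scale in Sirpa-positive cells (adjusted p = 0.00735) and by 1.55 ± 0.298 in Sirpa-negative cells (adjusted p = 0.0143), where 1 of the 2 mature arrays was above background. Ltbr, the gene of the lymphotoxin beta receptor, did not pass (-0.50 in Sirpa-positive, adjusted p = 0.375, and -0.23 in Sirpa-negative cells, adjusted p = 0.625).

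Of 20 genes of the IKK complex and its adaptors, 3 rose with maturation in Sirpa-positive cells and none (0) fell, with 1 lower at an unadjusted p under 0.05 (median 0.13), and 4 rose and 1 fell in Sirpa-negative cells (median 0.21). Of the 3 genes of the kinase complex itself, 1 passed. Ikbkb, the gene of IKKb, the kinase that marks the inhibitors for degradation, rose 2.06-fold in Sirpa-positive (1.04 ± 0.238, adjusted p = 0.0461) and 2.87-fold in Sirpa-negative cells (1.52 ± 0.238, adjusted p = 0.00687). Its signal was 2.68 and 2.88 in Sirpa-positive mature cells, against 1.43 and 1.28 in Sirpa-positive immature cells, and 4.49 and 3.02 in Sirpa-negative mature cells, against 1.26 and 1.3 in Sirpa-negative immature cells. Chuk, the gene of IKKa, which also phosphorylates p100, gave -0.06 ± 0.257 in Sirpa-positive (adjusted p = 0.93) and -0.05 ± 0.257 in Sirpa-negative cells (adjusted p = 0.927), with overlapping groups. Ikbkg, the gene of the regulatory subunit NEMO, did not pass (0.36 ± 0.194, adjusted p = 0.373, and 0.50 ± 0.194, adjusted p = 0.132). Among the adaptors, Traf6 rose 2.44-fold in Sirpa-positive (adjusted p = 0.048) and 2.98-fold in Sirpa-negative cells (adjusted p = 0.0135), and Traf2, which is also in the non-canonical list, rose 1.77-fold (adjusted p = 0.0465) and 1.96-fold (adjusted p = 0.0152). Tab1, an adaptor of the kinase TAK1, fell by 0.78 on the log2 scale in Sirpa-negative cells (adjusted p = 0.0468).

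Of 20 other inhibitors and feedback regulators, none (0) passed in Sirpa-positive cells with limma, while 3 were higher and 1 lower at an unadjusted p under 0.05 (median 0.33), and 5 rose and none (0) fell in Sirpa-negative cells (median 0.32). Tnfaip3, the gene of A20, a ubiquitin editor that ends canonical signalling, had 8.32 and 6.77 in Sirpa-positive mature cells, against 3.68 and 2.42 in Sirpa-positive immature cells. In Sirpa-negative cells it had 13.7 and 7.69 in the mature group, against 2.29 and 2.64 in the immature group. The difference was 1.33 ± 0.337 in Sirpa-positive cells (adjusted p = 0.0643) and 2.06 ± 0.337, 4.17-fold, in Sirpa-negative cells (adjusted p = 0.00801). Nfkbid, another nuclear member of the inhibitor family, gave 0.84 ± 0.231 (adjusted p = 0.083) in Sirpa-positive and 1.32 ± 0.231, 2.49-fold (adjusted p = 0.0104), in Sirpa-negative cells. The A20-binding inhibitors Tnip1 and Tnip3 rose 2.68-fold (adjusted p = 0.00557) and 8.78-fold (adjusted p = 0.00147) in Sirpa-negative cells. Tnip3 had 7.11 and 9.59 in Sirpa-positive mature cells, against 5.43 and 8.34 in Sirpa-positive immature cells, and 5.35 and 6.39 in Sirpa-negative mature cells, against 0.833 and 0.532 in Sirpa-negative immature cells. Its low group was thus the Sirpa-negative immature one, as for Nfkbie and Bcl3; at that stage Tnip3 was 10.1-fold higher in Sirpa-positive cells (adjusted p = 0.000752).

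Of 26 measured textbook targets of NF-kB outside the 10 genes, 15 rose with maturation in Sirpa-positive cells (median 1.36) and 21 in Sirpa-negative cells (median 2.16). None (0) fell in either with limma, nor at an unadjusted p under 0.05. Over all genes, 4.35% rose in Sirpa-positive and 9.23% in Sirpa-negative cells. Il6 was kept only through Sirpa-negative mature cells and Ptgs2 only through Sirpa-positive mature cells, so the filter favoured rises for both. Ccl5, a chemokine for T cells, rose 17.1-fold in Sirpa-positive (adjusted p = 0.002) and 27.6-fold in Sirpa-negative cells (adjusted p = 0.000599). Il15, a cytokine for memory T and NK cells, rose 7.24-fold in Sirpa-positive cells (adjusted p = 0.00366), and Traf1, an adaptor of TNF receptors, rose 4.59-fold there (adjusted p = 0.0042). Both were also higher in Sirpa-negative mature than immature cells. Il15 had 3.02 and 2.01 in that mature group, against 0.533 and 0.496, and Traf1 had 82.1 and 89.7, against 15 and 14.1. Ccl17, a ligand of CCR4, had 211 and 274 in Sirpa-positive mature cells, against 89.2 and 100 in Sirpa-positive immature cells, a difference of 1.35 ± 0.375 that did not pass (adjusted p = 0.0873). In Sirpa-negative cells Ccl17 had 93.2 and 95.8 in the mature group, against 6.33 and 2.78 in the immature group, a 22.5-fold rise (adjusted p = 0.000795). Irf1, an interferon regulatory factor, rose 7.19-fold in Sirpa-negative cells (adjusted p = 0.000882). It was also higher in Sirpa-positive mature cells (16.2 and 18.5) than in Sirpa-positive immature cells (4.55 and 4.67).

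**Figure D4:**
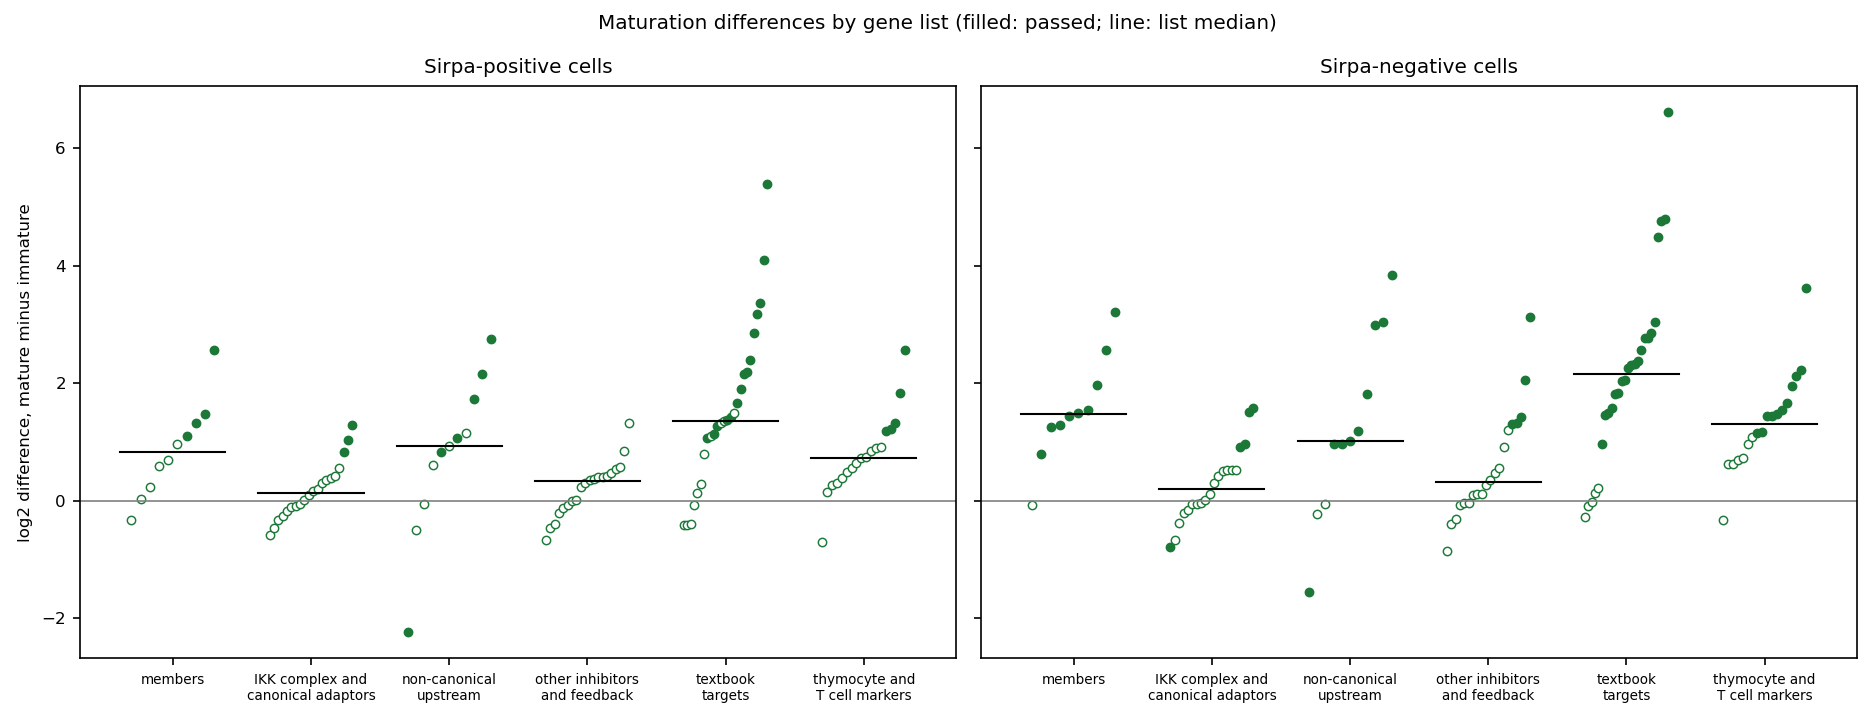
Log2 difference of mature over immature cells for every measured gene of 6 lists (the 10 NF-kB genes, called members, the IKK and canonical adaptors, non-canonical upstream genes, other inhibitors, target genes, and thymocyte and T cell markers), 1 point per gene, filled where it passed the test, and a line at the median, in Sirpa-positive and Sirpa-negative cells. The medians of the 10 members are 0.83 and 1.47 and those of the targets 1.36 and 2.16, while those of the IKK list are 0.13 and 0.21 and those of the thymocyte markers 0.73 and 1.31.

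Markers of other cell types moved with the same comparisons. Of 18 thymocyte and T cell markers measured, 5 rose with maturation in Sirpa-positive cells and 11 in Sirpa-negative cells, and none (0) fell in either with limma (medians 0.73 and 1.31), while 1 was lower at an unadjusted p under 0.05 in Sirpa-positive cells. Their summed signal ranged over 61.1 to 63.4 in Sirpa-positive mature and 42.9 to 49.5 in Sirpa-positive immature cells. In Sirpa-negative cells it ranged over 70.4 to 93.9 in the mature and 29.2 to 42.7 in the immature group. Cd4, Cd8a and Tcf7 made up most of that sum on every array, and the first 2 followed the subsets. Cd4 had 17.9 to 33.6 on Sirpa-positive and 2.31 to 3.48 on Sirpa-negative arrays, and Cd8a 1.36 to 6.84 and 14.7 to 40.6. The sum is thus not a measure of thymocyte RNA alone. Tcf7 changed most in both subsets, by 2.56 in Sirpa-positive (adjusted p = 0.00317) and 3.63 in Sirpa-negative cells (adjusted p = 0.000547), followed by Cd8a (1.83, adjusted p = 0.0418) in Sirpa-positive and Themis (2.23, adjusted p = 0.00168) in Sirpa-negative cells. None of these markers was below background on all arrays, and 15 of the 18 were above it on all 8. Rag2 was kept only through Sirpa-negative mature cells, so the filter favoured a rise for it. Thymocytes express NF-kB genes too, and the part of these markers in the rises of the 10 genes was not tested.

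B cell markers rose for 3 of 8 measured genes in Sirpa-positive and 2 of 8 in Sirpa-negative cells. Spib rose by 1.43 (adjusted p = 0.0341) in Sirpa-positive and 2.23 (adjusted p = 0.0038) in Sirpa-negative cells, and Cd79b rose by 1.15 (adjusted p = 0.0496) in Sirpa-negative cells. Ms4a1 was at least 2.29-fold higher in Sirpa-positive mature cells (adjusted p = 0.00492), being above background on 1 of those arrays and on neither Sirpa-positive immature array, a bound set against the dimmest signal above background. Summed over the 11 B cell markers on the array, the signal was 45.4 to 46.6 in Sirpa-positive mature and 26.1 to 29.3 in Sirpa-positive immature cells, and 23.3 to 28.3 in Sirpa-negative mature and 16.5 to 20.2 in Sirpa-negative immature cells. The part of B cell markers in the results above was not tested.

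Of the macrophage and monocyte markers, all 13 measured were higher in Sirpa-positive immature cells (median 5.11) and 11 of 13 in Sirpa-positive mature cells (median 5.29). Over all genes, 7.23% were higher in Sirpa-positive cells at the immature and 3.38% at the mature stage. Mrc1, C1qc, Cd163 and Mertk were kept only through Sirpa-positive groups, so the filter favoured higher values there for these genes. Summed over the 14 markers on the array, the signal was 495 to 496 in Sirpa-positive mature and 578 to 756 in Sirpa-positive immature cells. In Sirpa-negative cells it was 14 to 14.7 in the mature and 17.9 to 18.8 in the immature group. With maturation 2 of 13 fell in Sirpa-positive cells (median -0.8), where 7 were lower at an unadjusted p under 0.05, and 1 rose and 1 fell in Sirpa-negative cells (median -0.01). The largest differences were those of Mrc1 (-2.26, adjusted p = 0.0449) and Cd163 (-2.26, adjusted p = 0.0578) in Sirpa-positive cells, and in Sirpa-negative cells that of Mertk (1.24, adjusted p = 0.269; not above background on the immature arrays), apart from C1qc, which was not well above background there. Vsig4, a macrophage gene, was above background on no array. The part of macrophage markers in the differences of the NF-kB genes was not tested.

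Thymic epithelial and plasmacytoid dendritic cell markers were also counted. Of 8 epithelial markers measured, 1 fell in Sirpa-positive cells (Epcam, -1.75, adjusted p = 0.0181) and 1 rose in Sirpa-negative cells (Krt5, 1.71, adjusted p = 0.00209), with Cldn4 next in size in both (0.93 and 1.14, neither of which passed). At an unadjusted p under 0.05, 5 of the 8 were higher in Sirpa-negative mature cells, and the median there was 0.72. Summed over all 12 epithelial markers on the array, the signal was 231 to 310 in Sirpa-positive mature and 240 to 247 in Sirpa-positive immature cells, and 246 to 261 in Sirpa-negative mature and 273 to 299 in Sirpa-negative immature cells; Enpep and Cldn3 were above background on no array. Trp63 made up most of that sum, and over the other 7 measured markers it reached at most 12.3 in Sirpa-positive mature and 18.9 in Sirpa-positive immature cells, and at most 11.2 in Sirpa-negative mature and 6.77 in Sirpa-negative immature cells. Of 11 plasmacytoid markers, 1 rose and 1 fell in Sirpa-positive cells, and 2 rose and 3 fell in Sirpa-negative cells. Klk1 differed most (-2.3, adjusted p = 0.0558, in Sirpa-positive and -4.46, adjusted p = 0.0029, in Sirpa-negative cells), followed by Runx2 (1.48, adjusted p = 0.0541) in Sirpa-positive and Cox6a2 (-2.37, adjusted p = 0.00436) in Sirpa-negative cells. The summed signal of that list was 167 to 201 in Sirpa-positive mature and 167 to 178 in Sirpa-positive immature cells. In Sirpa-negative cells it was 162 to 177 in the mature and 173 to 181 in the immature group. Siglech (66.4 to 97.9), Irf7 and Bst2 made up most of that sum on every array. Klk1 reached at most 3.11 and Cox6a2 at most 0.932, so the sum hardly reflects their changes. The part of both lists in the results above was not tested.

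Likeness of patterns was measured as the root mean square difference between the 8 log2 values of a pair of genes, each centred on its own mean, over 13837 named genes. The gene nearest to Relb was Birc2 (0.116), followed by Tspan3 (0.19), Tmem19 (0.209), Tmem123 (0.21) and Prnp (0.211). Nearest to Rel were Htra2 (0.131), Pias3 (0.191), Agap1 (0.194), Caprin2 (0.194) and Suox (0.195). Within the 10 genes, the closest pair was Nfkb2 with Nfkbia (0.232), followed by Rela with Nfkbie (0.24), and the most distant pair was Relb with Nfkb1 (1.55). The partners Relb and Nfkb2 lay 0.768 apart, since Relb changed more. These values describe 8 arrays that share 1 slide.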

How the data were processed

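The intensity values used, the processed signal, were made by the authors with background subtraction in Feature Extraction 10.7.3.1, per the file headers. The submitters' processing notes give version 10.5 instead. A further table deposited by the authors is on the log2 scale (inferred from its range; direction as the signal; no centring of genes seen; medians per array 5.99 to 6.01) and looks quantile-normalized; limma is named for it in the submitters' processing notes. It served as an alternative.

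Here, each array's processed signals were divided by their 75th percentile and taken to log2. Spots marked as outliers were dropped, spots of a probe were averaged, and a probe was kept if some group had it well above background on both of its arrays. Accessions were named through a RefSeq table (GRCm38.p6), which gave 26582 of 55681 probes a symbol. The probe with the highest mean stood for a gene, which left 24148 genes or accessions. A single limma model (3.58.1, R 4.3.3) with 4 group means gave the comparisons (4 residual and 3.26 prior degrees of freedom), two-sided, with Benjamini-Hochberg adjustment. Precision is limited by the number of arrays. The model was tested on simulated data.

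The members and lists were chosen with earlier results of these data known. Besides the members, the text names Cd40, Map3k14, Traf3, Birc2, Birc3, Tnfaip3, Nfkbid, Chuk, Ikbkb and Ikbkg, Sirpa and Ccr7, up to 3 rises and falls per list and maturation comparison with the smallest p, the 2 largest differences per marker list of another cell type, and the 5 patterns nearest to Relb and to Rel. Ltbr, Tnfrsf1b at the immature stage and genes named as below background were added after their values were seen. Alternatives covered background correction, scaling, filters, probe choice, blocks, variances and each array left out.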

Additional observations from a re-analysis of the deposited data

How the results depend on the processing

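Across 20 alternatives (19 for the interaction), 7 of the 14 calls of the 10 genes passed each time they were tested. These were Relb in Sirpa-positive cells, and Rel, Relb, Nfkb2, Nfkbib, Nfkbie and Bcl3 in Sirpa-negative cells. Rel was tested in 19 (18 for the interaction). Its probe was dropped, and Rel left out of the counts, where probes had to be above background on all 8 arrays. The count of genes that rose with maturation in Sirpa-positive cells was 4, but 1 with no filter on dim probes, 2 when slide rows were blocked, 5 with the normexp setting, with title-number sets as a block or with trended and robust variances, and 1 to 4 when 1 array was left out. With a model of only the arrays compared, Rel missed the Sirpa-positive threshold (adjusted p = 0.0591). In Sirpa-negative cells the count was 9, and 6 to 9 when 1 array was left out. Without the filter on dim probes Rela, Nfkbia and Nfkbiz were lost there, and in the model of only the arrays compared Rela and Nfkbiz. Nfkbiz alone was lost there with median scaling, with the authors' values and when slide rows were blocked. Between immature subsets the count was 1, and 0 to 1 when 1 array was left out. It was 2 with the normexp setting, with probes above background on all 8 arrays or with trended and robust variances. The normexp setting joins normexp on the median pixel signal, chosen after seeing the data because the planned version with the mean signal could not be run, with quantile normalization. Of 985 values, 18 changed sign, none (0) of them with a call in either setting. Nfkbiz in Sirpa-positive maturation was -0.02 with the normexp setting, -0.08 with median scaling, -0.01 with the authors' values and -0.17 to 0.23 when 1 array was left out. Nfkb1 in Sirpa-negative maturation was 0.01 with the mean of a gene's probes and -0.25 to 0.11 when 1 array was left out. Between immature subsets Nfkb2 was 0.10 with the normexp setting, 0.10 with quantile normalization, 0.02 with median scaling, 0.07 with the authors' values and -0.12 to 0.04 when 1 array was left out. Between mature subsets Relb was 0.01 with quantile normalization, and when 1 array was left out Relb ranged from -0.20 to 0.04, Nfkbia from -0.53 to 0.03 and Bcl3 from -0.16 to 0.46. Over all genes, calls ranged from 394 to 2442 for Sirpa-positive maturation (1664 as reported), 1615 to 5364 for Sirpa-negative maturation (3977), 1232 to 3648 between immature subsets (2806), 579 to 1707 between mature subsets (1322) and 0 to 186 for the interaction (0, and 186 with trended and robust variances). The share of rises among Sirpa-positive maturation calls was 63.2%, and 50.2% (normexp setting) to 82.6% (no filter on dim probes) over the alternatives. No paired analysis was possible because the groups share no replicate numbers in the labels; slide rows and the title-number sets 1 to 4 and 5 to 8, each with 1 array per group, were fitted as blocks instead. These alternatives were run for the 10 genes and for the counts over all genes, not for single genes of the other lists. The causes of these changes were not tested. With 2 arrays a group, a difference that missed the threshold is not shown to be absent.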

Other observations

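Some genes outside the 10 had patterns close to those of Rela and the cytoplasmic inhibitors; they were chosen after their values were seen. The third nearest gene to Rela was Nfkbid (root mean square difference 0.094 on the log2 scale over 8 arrays), another nuclear member of the inhibitor family. For Nfkbia it was Cd3d, a T cell gene (0.157), and for Nfkbib it was Dntt, the terminal transferase of thymocytes (0.145). The part of thymocyte RNA in these patterns was not tested.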
